A study of Arabidopsis thaliana with 36 samples.

Results

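Roots of the Arabidopsis thaliana mutant opt3-2 were compared with roots of the wild type, Col-0, after both genotypes had spent 72 h in hydroponic medium with 20 µM CdCl2. The comparison took 18 of the 36 samples, 9 labelled as opt3-2 root and 9 labelled as Col-0 root. Each group held 3 biological replicates with 3 technical replicates each, which were summed to 3 libraries per genotype, 6 of the 12 libraries of the study. Seedlings had grown for 11 d on plates and 22 d in hydroponic culture with days of 16 h light and 8 h dark, and each RNA sample pooled 3 to 4 plants. Cadmium was given to both genotypes. No untreated plant was analysed here, so each value compares genotypes under cadmium and none measures what cadmium itself did. The mutant is represented by 1 allele.

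OPT3 belongs to the oligopeptide transporter family and loads iron into the phloem of shoots, from where iron and its signal travel to roots and young leaves. Plants with reduced OPT3 are known to hold iron in their leaves while their roots keep the iron-deficiency programme switched on. In that programme roots secrete coumarins and protons, reduce ferric iron with FRO2 and import ferrous iron through IRT1, a carrier that also accepts cadmium and zinc. Inside the root, cadmium binds thiols, draws on sulfate assimilation for glutathione and phytochelatins, and can disturb protein folding and respiration.

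Total counts were 22449113, 25141843 and 24526821 in opt3-2 roots, against 35934043, 36484138 and 35523985 in Col-0 roots. A floor of 3 counts in a library therefore lay at 0.119 to 0.134 CPM (counts scaled to the library total, and for the genes below also with TMM factors between libraries) in opt3-2 roots and at 0.0822 to 0.0844 CPM in Col-0 roots. Counts of organelle genes took 0.0895 to 0.116% of opt3-2 root libraries and 0.0394 to 0.0401% of Col-0 root libraries; the part of this in the results was not tested. The first principal component of the 6 root libraries (66.8% of the variance) separated the genotypes. On the second (15.5%), opt3-2 replicate 1 (31.8) and Col-0 replicate 3 (26.3) stood apart from the other libraries, which lay between -24.4 and -0.38. Some of the results that rest on these 2 libraries are given with and without them. A run suffix that the labels leave unexplained also differed between groups: opt3-2 roots have suffixes 1 to 3, Col-0 root replicates 1 and 2 have 5 to 7 and Col-0 replicate 3 has 2 to 4, so suffix and genotype cannot be told apart in full.

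OPT3 (AT4G16370; chromosome 4, 9247302 to 9250343, minus strand, TAIR10.1) had 9.02, 4.55 and 4.13 CPM in opt3-2 roots, against 38.4, 47.9 and 41.4 CPM in Col-0 roots. Every opt3-2 library held less than every Col-0 library, and the transcript was 7.27-fold lower (log2 -2.86 ± 0.25 SE, adjusted p = 1.48e-05). Among its neighbours CBL6, a calcium sensor gene on the same strand, was also lower, with 12.2, 11.6 and 11.04 CPM in opt3-2 roots, against 19.4, 18.4 and 18.1 CPM in Col-0 roots (log2 -0.68 ± 0.15 SE, adjusted p = 0.00342). AT4G16360, which lies between the pair and encodes a subunit of a SNF1-related kinase, stood at -0.09 ± 0.05, and AT4G16380, a heavy metal transport family gene on the far side of OPT3, at 0.00 ± 0.10; neither passed the test. AT4G16355, a non-coding RNA gene between CBL6 and OPT3, was lower, with 0.870, 0.483 and 0.565 CPM in opt3-2 and 1.35, 1.34 and 1.16 CPM in Col-0 (log2 -1.01 ± 0.24 SE, adjusted p = 0.0061), and AT4G16330, an oxygenase family gene beyond CBL6, stood at log2 -0.21 ± 0.07 SE, adjusted p = 0.0304, a call lost without opt3-2 replicate 1 or 3 or Col-0 replicate 1 or 3.

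At an adjusted p below 0.05, opt3-2 roots had 3828 of 21887 tested genes higher (17.5%) and 4702 lower (21.5%), 39.0% in all. Genes that rose did so by more: the median fold among called genes was 1.58 for those higher and 1.36 for those lower. At 2-fold or more 1151 genes (5.26%) were higher and 576 (2.63%) lower, and at 8-fold or more 95 were higher and 20 lower. The median log2 fold change of all genes tested was -0.01. The 3 opt3-2 libraries lay above all 3 Col-0 libraries for 24.1% of genes and below them for 29.0%. Shares of called genes were alike on all 5 nuclear chromosomes, with 17.1 to 18.2% higher and 20.4 to 22.2% lower.

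**Figure D1:**
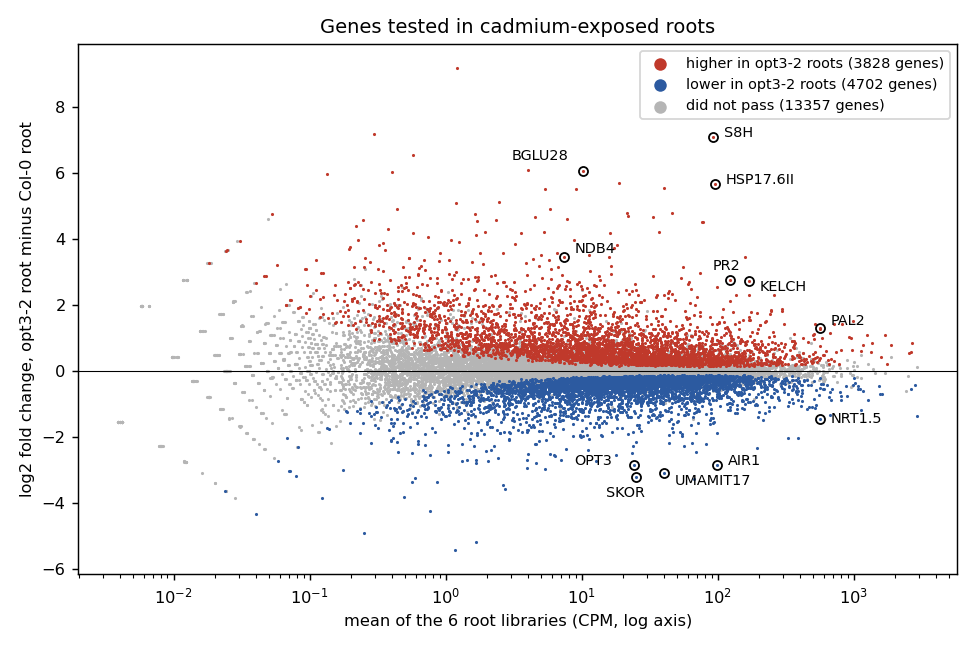
Each point is 1 of 21887 genes: the x axis gives the mean of the 6 root libraries in CPM (log axis), the y axis the log2 fold change of opt3-2 roots over Col-0 roots, and colour the call at an adjusted p below 0.05. S8H (7.08), HSP17.6II (5.64) and BGLU28 (6.05) lie far above the line at 0, and SKOR (-3.22), UMAMIT17 (-3.11) and OPT3 (-2.86) far below it.

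Gene lists by role were set beside these shares. Counts in the paragraphs that follow are members called among members tested, to be read against 17.5% higher and 21.5% lower over all genes tested. Where genotypes are said not to overlap, the share over all genes tested was 53.2% in either direction. RNA came from whole roots, so fewer cells of a type and less RNA per cell cannot be told apart.

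**Figure D2:**
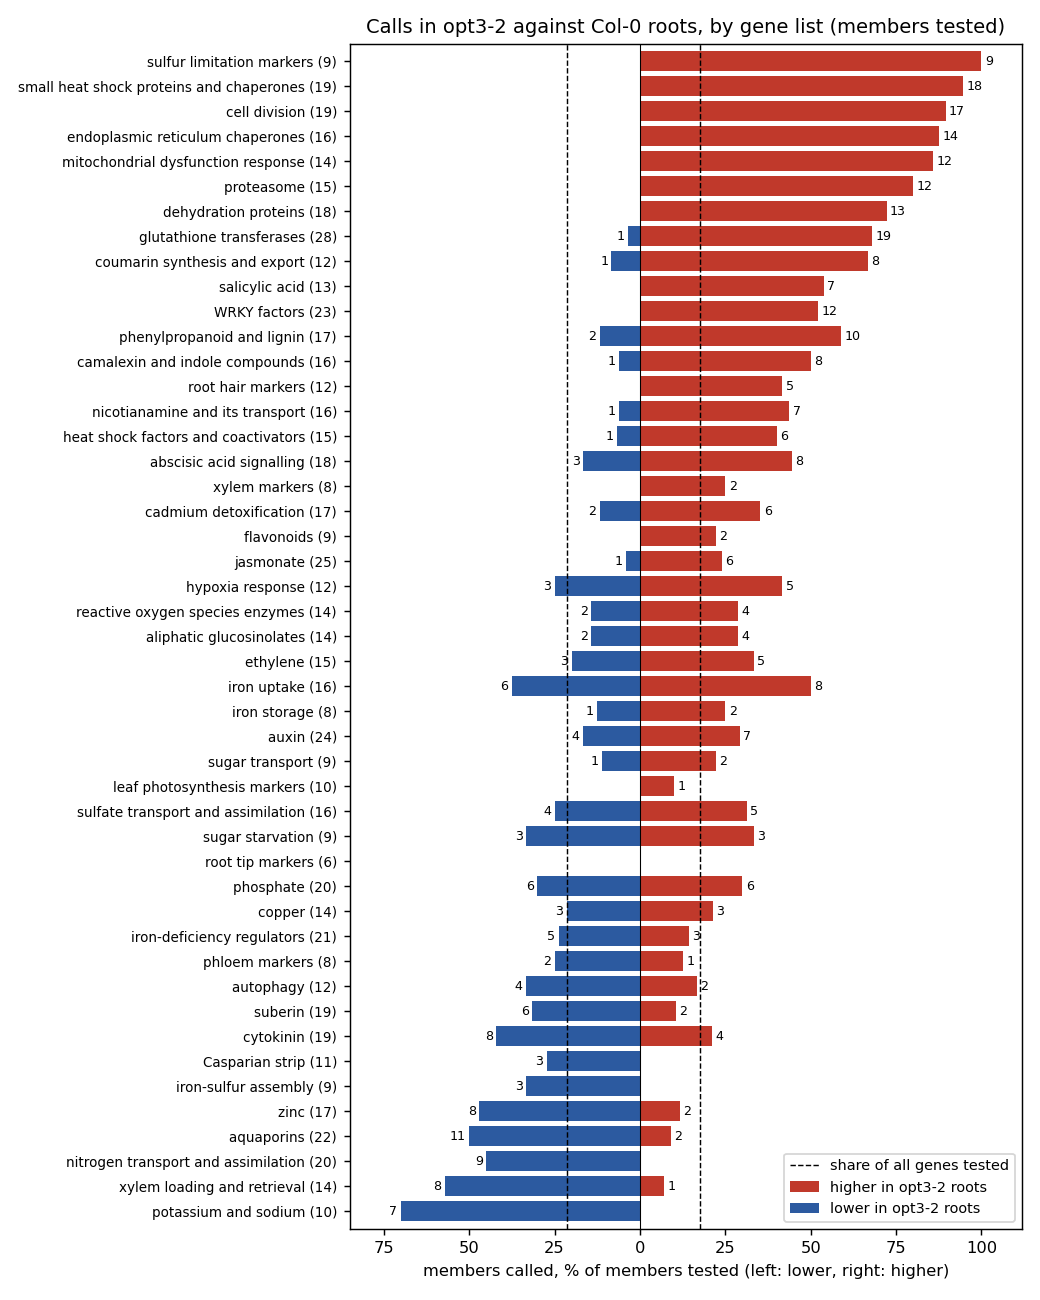
Bars give the percentage of tested members of each gene list that were called higher (right) or lower (left) in opt3-2 roots, with the count at the end of each bar and the number tested in parentheses. Dashed lines mark the shares over all genes tested, 17.5% higher and 21.5% lower; 9 of 9 sulfur limitation markers and 18 of 19 small heat shock proteins and chaperones were higher, and 7 of 10 potassium and sodium genes were lower.

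The heat shock proteins had the largest median rise of the 47 lists. Of 19 small heat shock proteins and cytosolic chaperones, which hold or refold denatured proteins, 18 rose and 0 fell, with a median log2 fold change of 4.18 against -0.01 over all genes. Summed over the list, opt3-2 roots held 1355, 1491 and 1761 CPM, against 266, 292 and 299 CPM in Col-0 roots. The member that did not pass, the cochaperone gene BAG6, stood at 0.27 ± 0.10. HSP26.5, a small heat shock protein of mitochondria, had 65.7, 81.6 and 90.3 CPM in opt3-2 roots, against 1.59, 1.81 and 1.68 CPM in Col-0 roots (log2 5.54 ± 0.17 SE, adjusted p = 3.99e-09). HSP21, the chloroplast and plastid form, had 14.3, 16.6 and 22.5 CPM in opt3-2 roots, against 0.410, 0.540 and 0.201 CPM in Col-0 roots (log2 5.51 ± 0.29 SE, adjusted p = 1.83e-07). HSP23.6, a mitochondrial form, had 8.62, 7.73 and 9.60 CPM in opt3-2 roots, against 0.386, 0.470 and 0.151 CPM in Col-0 roots (log2 4.66 ± 0.32 SE, adjusted p = 1.20e-06). In all 3 cases the lowest opt3-2 library lay far above the highest Col-0 library. The endoplasmic reticulum form HSP22.0 (4.18 ± 0.33) and the peroxisomal form HSP15.7 (2.20 ± 0.19) rose too, so the rise reached small heat shock proteins of each of these compartments. ROF2, a peptidyl-prolyl isomerase that binds HSP90, had 103, 97.6 and 117 CPM in opt3-2 roots, against 17.7, 15.9 and 15.5 CPM in Col-0 roots (log2 2.69 ± 0.11 SE, adjusted p = 2.93e-08). HSP90.1 (1.43 ± 0.10) and HSP70-4 (1.39 ± 0.13), the inducible cytosolic chaperones, rose less. HSC70-1, a constitutive chaperone among the most abundant transcripts, stood at -0.18 ± 0.08 and did not pass.

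Promoters are shown for the 2 members with the largest rise among those that hold a heat shock element and kept their call without any single library, 250 bases before the annotated start, from the RefSeq genome of TAIR10.1, 5′ to 3′ on the strand of the gene. Capitals mark the element GAANNTTC, the pair of inverted repeats that heat shock factors recognise.
HSP26.5 (chr1:19575867-19576116, minus strand): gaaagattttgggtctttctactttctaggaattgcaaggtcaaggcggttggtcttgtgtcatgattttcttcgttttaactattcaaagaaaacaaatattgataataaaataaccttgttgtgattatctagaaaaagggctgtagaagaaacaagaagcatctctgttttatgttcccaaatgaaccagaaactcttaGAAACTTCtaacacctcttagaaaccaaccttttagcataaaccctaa
HSP21 (chr4:13819972-13820221, minus strand): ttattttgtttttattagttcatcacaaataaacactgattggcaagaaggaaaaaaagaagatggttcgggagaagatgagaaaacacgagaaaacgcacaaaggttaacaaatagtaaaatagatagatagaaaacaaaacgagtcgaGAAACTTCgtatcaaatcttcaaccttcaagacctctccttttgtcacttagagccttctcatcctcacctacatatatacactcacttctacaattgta
Searched on both strands, this element occurred in 5 of the 19 promoters (26.3%), against 9.51% of 21478 promoters of protein-coding genes tested. It was more frequent in 5 of 13 promoters of salicylic acid genes (38.5%) and 5 of 16 of heat shock factors and coactivators (31.25%). Endoplasmic reticulum chaperones held it in 1 of 16 promoters (6.25%). In HSP26.5 it begins 48 bases before the start and in HSP21 100 bases before it. A match of these letters is a description of the sequence and not evidence of binding.

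The factors that switch on these genes moved less evenly: of 15 heat shock factors and coactivators tested, 6 rose and 1 fell. HSFA2, the factor that prolongs the heat response, had 14.4, 16.9 and 16.8 CPM in opt3-2 roots, against 5.79, 6.46 and 6.61 CPM in Col-0 roots (log2 1.35 ± 0.15 SE, adjusted p = 4.33e-05). HSFA7B (1.72 ± 0.21) and DREB2A (1.01 ± 0.17), a factor for drought and heat, also rose with no overlap between genotypes. The constitutive master factors HSFA1A (-0.06 ± 0.08) and HSFA1D (0.12 ± 0.08) did not pass. HSFA1B fell slightly (-0.25 ± 0.06); it stood at -0.20 (adjusted p = 0.0767) when opt3-2 replicate 1 and Col-0 replicate 3 were both left out.

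Chaperones of the endoplasmic reticulum rose together, by small steps. They fold secreted proteins, and their genes are induced when unfolded proteins collect in that compartment. Of 16 tested, 14 rose and 0 fell (median 0.49), and 1 of them reached 2-fold. Their summed level was 4679, 5175 and 5255 CPM in opt3-2 roots, against 3559, 3714 and 3261 CPM in Col-0 roots. BIP3, the stress-induced luminal HSP70, had 151, 174 and 189 CPM in opt3-2 roots, against 69.97, 79.4 and 79.5 CPM in Col-0 roots (log2 1.17 ± 0.12 SE, adjusted p = 3.51e-05). PDIL1-2, a protein disulfide isomerase, had 214, 245 and 252 CPM in opt3-2 roots, against 132, 144 and 129 CPM in Col-0 roots (log2 0.81 ± 0.08 SE, adjusted p = 1.43e-05). SHD, the luminal HSP90, had 794, 922 and 928 CPM in opt3-2 roots, against 615, 629 and 532 CPM in Col-0 roots (log2 0.57 ± 0.08 SE, adjusted p = 0.000266). For each of these every opt3-2 library was above every Col-0 library. BZIP60, the factor that drives these genes, had 139, 113 and 120.0 CPM in opt3-2 and 74.7, 80.9 and 93.3 CPM in Col-0 (log2 0.58 ± 0.10 SE, adjusted p = 0.000789). BIP1 and BIP2 are near-identical and their counts may be split between them.

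The 2 members with the endoplasmic reticulum stress element and a rise are shown in the same way. Capitals mark the element, CCAAT and CCACG with 9 bases of any kind between them.
PDIL1-2 (chr1:29126398-29126647, plus strand): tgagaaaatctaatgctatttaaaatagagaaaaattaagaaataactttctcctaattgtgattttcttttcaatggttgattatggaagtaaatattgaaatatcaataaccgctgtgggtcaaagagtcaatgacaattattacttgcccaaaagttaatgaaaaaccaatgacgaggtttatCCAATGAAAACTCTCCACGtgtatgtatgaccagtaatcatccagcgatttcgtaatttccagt
SHD (chr4:12556059-12556308, minus strand): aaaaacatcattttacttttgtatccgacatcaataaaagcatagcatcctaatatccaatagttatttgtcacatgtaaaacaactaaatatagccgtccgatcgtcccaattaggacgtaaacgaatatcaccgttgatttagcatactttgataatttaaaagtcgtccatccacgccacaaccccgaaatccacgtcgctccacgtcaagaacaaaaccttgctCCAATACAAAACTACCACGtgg
Of the 16 promoters of this list 2 hold the element (12.5%), against 0.359% of the 21478. It begins 64 bases before the start in PDIL1-2 and 22 bases before it in SHD.

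Proteasome genes, which encode the complex that degrades ubiquitin-tagged proteins, followed with still smaller values: 12 of 15 rose and 0 fell, at a median of 0.23. Without both opt3-2 replicate 1 and Col-0 replicate 3, 9 rose and 0 fell. RPN10, a ubiquitin receptor, had 138, 145 and 146 CPM in opt3-2 and 121, 118 and 114 CPM in Col-0 (log2 0.28 ± 0.05 SE, adjusted p = 0.000776), and the ATPase subunit RPT1A stood at 0.33 ± 0.06. None of the 12 reached 1.5-fold. Autophagy genes had 2 members higher and 4 lower of 12. ATG8H rose, with 40.8, 41.1 and 37.6 CPM in opt3-2 and 28.7, 21.6 and 22.96 CPM in Col-0 (log2 0.71 ± 0.09 SE, adjusted p = 0.000126), while ATG5 (-0.39 ± 0.08), ATG8C (-0.27 ± 0.06) and ATG8F (-0.29 ± 0.07) fell, so the ATG8 family, small proteins that coat the autophagosome, was split. The second member counted as higher, NBR1, lost its call without any of 4 libraries (opt3-2 replicate 2 or 3, Col-0 replicate 1 or 2), which left 1.

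**Figure D3:**
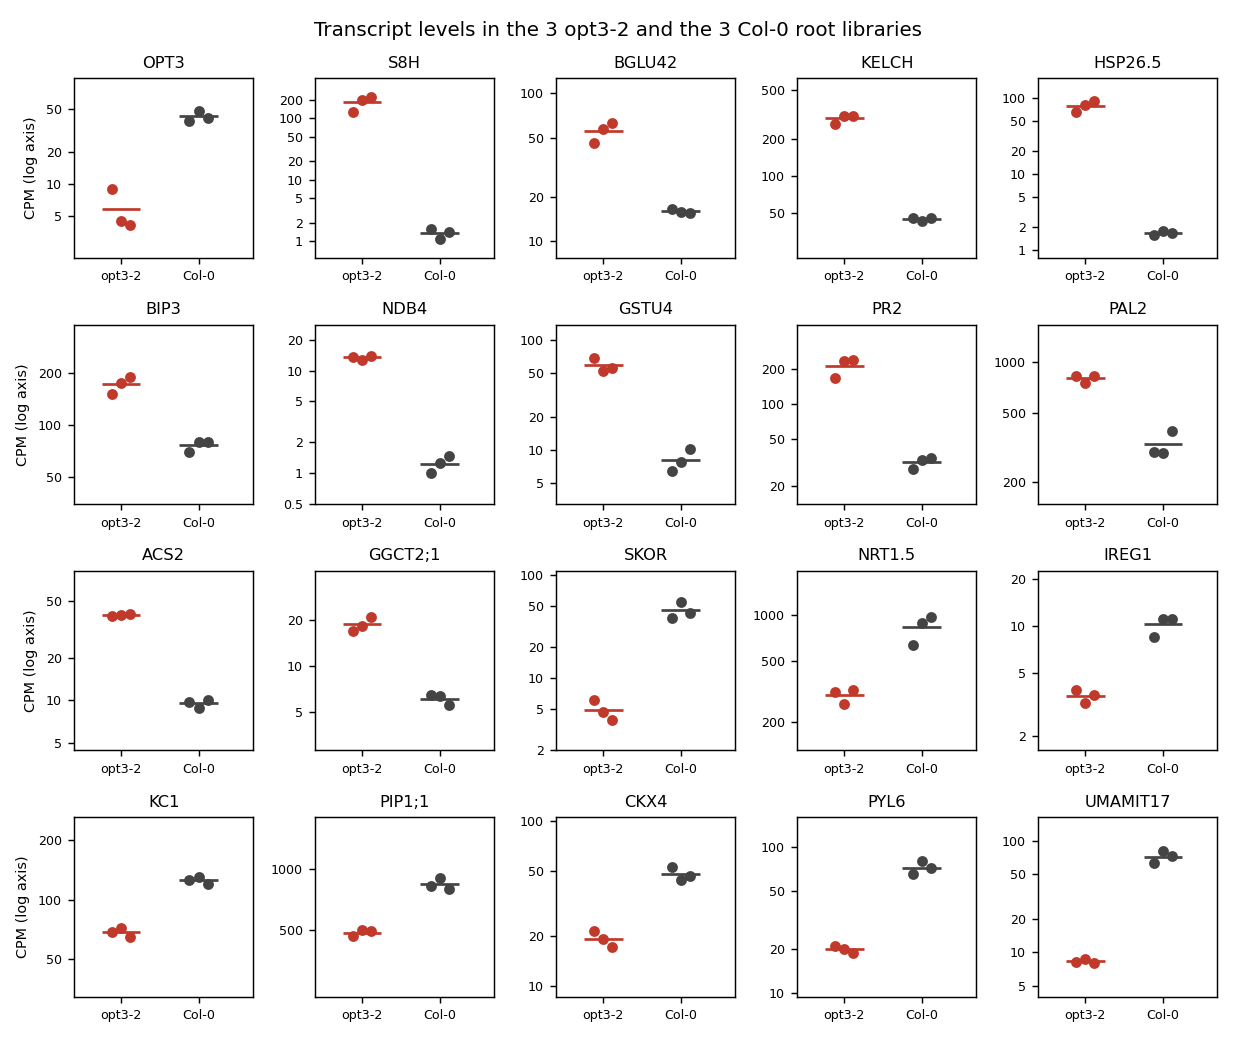
Each panel shows 1 gene, with the 3 opt3-2 root libraries (red) left of the 3 Col-0 root libraries (grey), in CPM on a log axis; horizontal bars are group means. In all 20 panels, of genes picked with their values known, the genotypes do not overlap, as for 53.2% of all genes tested. OPT3 lies at 4.13 to 9.02 CPM in opt3-2 against 38.4 to 47.9 CPM in Col-0. UMAMIT17 lies at 8.01 to 8.80 CPM in opt3-2 against 62.8 to 80.4 CPM in Col-0.

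Among 14 genes that answer to disturbed mitochondria 12 rose and 0 fell (median 1.65). NDB4, an external NADH dehydrogenase of the inner membrane, had 13.7, 12.7 and 14.04 CPM in opt3-2 roots, against 0.989, 1.25 and 1.46 CPM in Col-0 roots (log2 3.45 ± 0.31 SE, adjusted p = 8.72e-06). AOX1A, the alternative oxidase that bypasses the later respiratory complexes, had 117, 113 and 116 CPM in opt3-2 roots, against 45.9, 48.9 and 53.8 CPM in Col-0 roots (log2 1.22 ± 0.08 SE, adjusted p = 5.71e-07). UPOX, a mitochondrial protein induced by oxidative stress, had 26.03, 30.2 and 30.9 CPM in opt3-2 roots, against 3.33, 3.45 and 4.65 CPM in Col-0 roots (log2 2.93 ± 0.22 SE, adjusted p = 2.61e-06). None of these genes showed an overlap between genotypes. AT12CYS-2, a small protein of the CHCH family, had 9.69, 13.5 and 10.9 CPM in opt3-2 roots, against 0.265, 0.329 and 0.553 CPM in Col-0 roots (log2 4.89 ± 0.28 SE, adjusted p = 3.03e-07). NAC013, the membrane-bound factor that relays the mitochondrial signal, had 42.3, 46.9 and 48.3 CPM in opt3-2 and 24.5, 23.8 and 22.6 CPM in Col-0 (log2 0.96 ± 0.07 SE, adjusted p = 2.24e-06). UGT74E2, a glucosyltransferase for an auxin, stood at 2.75 ± 0.24 and the dehydrogenase genes NDA1 and NDB2 at 2.67 ± 0.21 and 1.15 ± 0.08.

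Glutathione transferases join glutathione to reactive compounds, and 19 of 28 rose while 1 fell (median 0.92; 2 fell without Col-0 replicate 3). Summed, they stood at 5251, 4804 and 5003 CPM in opt3-2 roots, against 2902, 2646 and 3410.0 CPM in Col-0 roots. GSTU4 had 69.5, 52.4 and 55.5 CPM in opt3-2 roots, against 6.39, 7.78 and 10.2 CPM in Col-0 roots (log2 2.86 ± 0.25 SE, adjusted p = 1.40e-05). GSTU17 had 4.35, 4.62 and 6.63 CPM in opt3-2 and 1.04, 0.893 and 0.954 CPM in Col-0 (log2 2.43 ± 0.19 SE, adjusted p = 2.42e-06), and GSTU25 stood at 1.92 ± 0.14. GSTF2, of the phi class and among the most abundant transcripts, had 2282, 2282 and 2378 CPM in opt3-2 roots, against 1085, 921 and 1249 CPM in Col-0 roots (log2 1.09 ± 0.15 SE, adjusted p = 0.000144). GSTU27 went the other way (-0.48 ± 0.11). Tau class genes lie in tandem arrays of similar copies, so values of single members are less certain than the direction of the family.

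Among genes for binding and storing cadmium 6 of 17 rose and 2 fell; without both opt3-2 replicate 1 and Col-0 replicate 3, 4 rose and 1 fell. ABCC3, a vacuolar transporter of phytochelatin complexes, had 403, 360.0 and 375 CPM in opt3-2 roots, against 181, 219.6 and 289.8 CPM in Col-0 roots (log2 0.72 ± 0.14 SE, adjusted p = 0.00185). DTX1, an efflux carrier for toxic compounds, had 13.1, 10.3 and 9.95 CPM in opt3-2 and 4.97, 4.91 and 6.58 CPM in Col-0 (log2 1.02 ± 0.17 SE, adjusted p = 0.000617). GSH1 (0.16 ± 0.08) and GSH2 (0.02 ± 0.09), the enzymes that make glutathione, did not pass. MT1C, a metallothionein, had 281, 279.6 and 308 CPM in opt3-2 and 457, 464 and 486 CPM in Col-0 (log2 -0.70 ± 0.18 SE, adjusted p = 0.0115); without both of those libraries it stood at -0.65 (adjusted p = 0.0674) and did not pass, and 1 member fell instead of 2 without opt3-2 replicate 2 or without Col-0 replicate 1. Enzymes for reactive oxygen had 4 higher and 2 lower of 14, with 1 lower without Col-0 replicate 1. ZAT12, a zinc finger factor of oxidative stress, had 226, 163 and 213 CPM in opt3-2 roots, against 53.9, 72.6 and 124 CPM in Col-0 roots (log2 1.26 ± 0.27 SE, adjusted p = 0.00445). APX2, a heat-inducible ascorbate peroxidase, had 0.593, 1.10 and 1.24 CPM in opt3-2 and 0.0965, 0.0470 and 0.126 CPM in Col-0; its Col-0 values lie around the floor of 3 counts and no fold is given. CAT1 (0.70 ± 0.11) rose and the peroxisomal superoxide dismutase CSD3 (-0.63 ± 0.10) fell.

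Coumarins are phenolics that roots secrete to mobilise iron. Of 12 coumarin genes 8 rose and 1 fell (median 0.89). BGLU42, a glucosidase that frees coumarins for secretion, had 46.6, 57.2 and 63.2 CPM in opt3-2 roots, against 16.6, 15.9 and 15.5 CPM in Col-0 roots (log2 1.80 ± 0.11 SE, adjusted p = 4.22e-07). F6H1, which makes the scopoletin precursor, had 672, 649 and 707 CPM in opt3-2 roots, against 312, 314 and 340.2 CPM in Col-0 roots (log2 1.07 ± 0.14 SE, adjusted p = 0.000158). CYP82C4, which turns fraxetin into sideretin, had 5.54, 6.38 and 6.21 CPM in opt3-2 roots, against 0.507, 0.423 and 0.326 CPM in Col-0 roots (log2 3.84 ± 0.23 SE, adjusted p = 4.22e-07). Every opt3-2 library of these 3 genes lay above every Col-0 library. The same held for S8H, an oxygenase family gene with a far steeper rise. S8H had 126, 202 and 223 CPM in opt3-2 roots, against 1.57, 1.08 and 1.41 CPM in Col-0 roots (log2 7.08 ± 0.27 SE, adjusted p = 5.34e-08). The exporter ABCG37 (0.46 ± 0.06) and COSY (0.72 ± 0.13), a coumarin synthase, rose by less, and BGLU23, an abundant glucosidase of endoplasmic reticulum bodies, fell (-0.55 ± 0.08). The summed level of the coumarin list, to which BGLU23 gives the most, was 3992, 4249 and 4091 CPM in opt3-2 roots and 4621, 4283 and 4328 CPM in Col-0 roots, lower in every opt3-2 library although most members rose.

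Of 16 genes of iron uptake and handling in the root 8 rose and 6 fell (median 0.12). FRO2 and IRT1 are given here only from the fit without both opt3-2 replicate 1 and Col-0 replicate 3. That fit was added after seeing the data. In it FRO2 stood at log2 3.50 (adjusted p = 3.14e-06) and IRT1 at 2.35 (adjusted p = 2.59e-06). MTP8, a vacuolar carrier for manganese and iron, had 3.28, 3.10 and 3.74 CPM in opt3-2 roots, against 0.289, 0.282 and 0.502 CPM in Col-0 roots (log2 3.23 ± 0.31 SE, adjusted p = 1.27e-05), and IRT2, the close relative of IRT1, had 32.4, 33.7 and 44.3 CPM in opt3-2 and 10.2, 6.02 and 5.68 CPM in Col-0 (log2 2.33 ± 0.23 SE, adjusted p = 2.15e-05). Other members fell. NRAMP1, which imports manganese and iron, had 135, 139 and 132 CPM in opt3-2 roots, against 187, 182 and 204 CPM in Col-0 roots (log2 -0.50 ± 0.10 SE, adjusted p = 0.00273). IREG2, which moves nickel and cobalt into the vacuole, had 50.7, 53.2 and 51.6 CPM in opt3-2 and 76.3, 72.9 and 73.5 CPM in Col-0 (log2 -0.52 ± 0.12 SE, adjusted p = 0.00614), and ORG1, a gene expressed with the iron-deficiency factors, stood at -0.69 ± 0.11.

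Regulators of the iron-deficiency response gave 3 higher and 5 lower of 21. BHLH11, a repressor of the iron-deficiency response, had 5.02, 4.04 and 4.66 CPM in opt3-2 roots, against 9.70, 12.6 and 14.4 CPM in Col-0 roots (log2 -1.42 ± 0.21 SE, adjusted p = 0.00025). BHLH115, an activator of the upstream group, had 131, 133 and 128 CPM in opt3-2 roots, against 190.0, 191 and 190.5 CPM in Col-0 roots (log2 -0.54 ± 0.06 SE, adjusted p = 6.48e-05). BHLH121, which partners that group, had 30.6, 31.04 and 31.2 CPM in opt3-2 roots, against 39.5, 37.5 and 37.6 CPM in Col-0 roots (log2 -0.30 ± 0.05 SE, adjusted p = 0.000717). All 3 lay below Col-0 in every library, as did the activator BHLH104 (-0.28 ± 0.07). BHLH38 (0.08 ± 0.20), ILR3 (0.06 ± 0.05), PYE (0.00 ± 0.14) and BTS (0.25 ± 0.12) did not pass. BHLH19 is counted as higher, with 6.84, 1.10 and 0.953 CPM in opt3-2 and 0.386, 0.164 and 0.779 CPM in Col-0, but its call was lost without opt3-2 replicate 1, Col-0 replicate 1 or Col-0 replicate 2. The other higher members were BHLH39, a partner of FIT, with 28.2, 27.6 and 29.99 CPM in opt3-2 and 16.9, 20.9 and 13.1 CPM in Col-0 (log2 0.75 ± 0.16 SE, adjusted p = 0.00317), and IMA3, a peptide that promotes iron uptake (log2 0.93 ± 0.24 SE, adjusted p = 0.00877). FIT, the activator of iron uptake genes, which is counted among the uptake genes, also rose (log2 1.19 ± 0.16 SE, adjusted p = 0.0002).

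Nicotianamine, the small chelator that carries iron and zinc between cells, had 7 of 16 related genes higher and 1 lower. NAS1, a nicotianamine synthase, had 158, 197 and 241 CPM in opt3-2 roots, against 40.7, 53.1 and 43.6 CPM in Col-0 roots (log2 2.12 ± 0.22 SE, adjusted p = 4.74e-05). ZIF1, which loads nicotianamine into vacuoles, had 100.2, 88.5 and 89.2 CPM in opt3-2 roots, against 58.4, 59.2 and 67.2 CPM in Col-0 roots (log2 0.59 ± 0.12 SE, adjusted p = 0.00224). YSL2 (0.54 ± 0.10) and YSL7 (0.63 ± 0.17), members of the family that carries metal chelates, rose and YSL5 (-0.41 ± 0.07) fell. Of 8 iron storage genes tested 2 rose and 1 fell, and 0 fell without opt3-2 replicate 1, Col-0 replicate 1 or Col-0 replicate 2. NRAMP3, which releases iron from vacuoles, had 23.1, 22.9 and 23.5 CPM in opt3-2 and 17.7, 17.2 and 17.3 CPM in Col-0 (log2 0.42 ± 0.08 SE, adjusted p = 0.00204), while NRAMP4, which does the same, stood at -0.04 ± 0.10. FER1 is listed at 0 in every root library. How reads were counted is not given, so this value is not read as absence of the transcript. Iron-sulfur assembly genes had 0 higher and 3 lower of 9, and 1 lower without opt3-2 replicate 2 or 3 or Col-0 replicate 2 or 3. NFS2, the plastid cysteine desulfurase, stood at -0.24 ± 0.06, and at -0.22 (adjusted p = 0.0654) without both opt3-2 replicate 1 and Col-0 replicate 3.

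Of 17 zinc genes 8 fell and 2 rose (median -0.45; 1 rose without opt3-2 replicate 2, Col-0 replicate 2 or Col-0 replicate 3). ZIP2, a zinc and manganese carrier, had 79.1, 75.96 and 74.8 CPM in opt3-2 roots, against 121, 126 and 129.6 CPM in Col-0 roots (log2 -0.71 ± 0.11 SE, adjusted p = 0.000528). ZIP6 stood at -0.75 ± 0.13, IRT3 at -0.51 ± 0.10 and ZIP5 at -0.63 ± 0.15. ZIP9, of the zinc-deficiency set, rose instead, with 12.02, 12.4 and 12.1 CPM in opt3-2 and 8.76, 6.18 and 5.37 CPM in Col-0 (log2 0.85 ± 0.19 SE, adjusted p = 0.00422). The vacuolar zinc importer MTP1 stood at -0.05 ± 0.08 and did not pass. Copper genes had 3 higher and 3 lower of 14, but 0 or 1 fell when opt3-2 replicate 3, Col-0 replicate 1 or Col-0 replicate 2 was left out. COPT1, the root copper importer, had 4.55, 5.17 and 4.83 CPM in opt3-2 and 3.71, 3.05 and 2.86 CPM in Col-0 (log2 0.60 ± 0.11 SE, adjusted p = 0.00109), and the copper chaperone CCH stood at 0.33 ± 0.08.

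Markers of sulfur limitation rose in 9 of 9 cases (median 1.28), and 6 of the 9 reached 2-fold. BGLU28, a beta glucosidase, had 22.0, 16.2 and 21.8 CPM in opt3-2 roots, against 0.314, 0.282 and 0.301 CPM in Col-0 roots (log2 6.05 ± 0.23 SE, adjusted p = 1.98e-08). GGCT2;1, which recycles glutathione, had 17.05, 18.5 and 21.1 CPM in opt3-2 roots, against 6.44, 6.32 and 5.58 CPM in Col-0 roots (log2 1.63 ± 0.13 SE, adjusted p = 4.05e-06). LSU3, a small protein induced by low sulfur, had 14.5, 15.1 and 17.96 CPM in opt3-2 roots, against 3.50, 5.52 and 6.63 CPM in Col-0 roots (log2 1.60 ± 0.19 SE, adjusted p = 5.91e-05). LSU2, its relative, had 34.1, 34.6 and 43.5 CPM in opt3-2 roots, against 13.7, 17.9 and 12.5 CPM in Col-0 roots (log2 1.35 ± 0.13 SE, adjusted p = 1.92e-05). None of these genes overlapped between genotypes. The element GAGAC, part of the sulfur-responsive sequence, occurred in 4 of their 9 promoters (44.4%), against 25.3% of the 21478; it was as frequent in 8 of 19 heat shock protein promoters (42.1%). Sulfate transport and assimilation was divided, with 5 higher and 4 lower of 16 (2 lower without opt3-2 replicate 2). The reductases APR1 (0.95 ± 0.11) and APR3 (0.71 ± 0.12) rose. SULTR1;1, a high-affinity importer of the root surface that sulfur limitation induces, had 230.5, 291 and 227 CPM in opt3-2 roots, against 422, 395 and 407 CPM in Col-0 roots (log2 -0.71 ± 0.17 SE, adjusted p = 0.00648), and SULTR2;2, a vascular carrier, had 2.97, 2.59 and 2.58 CPM in opt3-2 and 7.98, 7.71 and 4.92 CPM in Col-0 (log2 -1.35 ± 0.17 SE, adjusted p = 8.28e-05). Carriers moved in both directions: SULTR2;1, another vascular carrier, rose (2.80 ± 0.11), as did SULTR4;2, which releases sulfate from vacuoles (0.41 ± 0.09).

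Of 14 carriers that move ions into or out of the xylem sap 8 fell and 1 rose (median -0.74), and 7 of the 8 fell by 2-fold or more. Their summed level was 1423, 1230.1 and 1309 CPM in opt3-2 roots, against 1974, 2494 and 2577 CPM in Col-0 roots. NRT1.5, which loads nitrate, had 317, 261 and 322 CPM in opt3-2 roots, against 636, 891 and 969 CPM in Col-0 roots (log2 -1.47 ± 0.17 SE, adjusted p = 5.43e-05). PHO1, which loads phosphate, had 381, 313 and 339 CPM in opt3-2 roots, against 596, 761 and 763 CPM in Col-0 roots (log2 -1.04 ± 0.20 SE, adjusted p = 0.00213). IREG1, a ferroportin of the stele, had 3.92, 3.24 and 3.63 CPM in opt3-2 roots, against 8.54, 11.2 and 11.2 CPM in Col-0 roots (log2 -1.52 ± 0.14 SE, adjusted p = 7.90e-06). HKT1, which retrieves sodium from the sap, had 44.1, 30.4 and 33.9 CPM in opt3-2 roots, against 80.5, 135 and 107 CPM in Col-0 roots (log2 -1.58 ± 0.20 SE, adjusted p = 0.000172). SLAH1, an anion channel subunit for chloride, had 10.2, 8.76 and 8.65 CPM in opt3-2 and 17.8, 25.6 and 24.9 CPM in Col-0 (log2 -1.31 ± 0.19 SE, adjusted p = 0.000232). The zinc and cadmium pump HMA4 fell by less (-0.45 ± 0.11). FRD3, the citrate loader that keeps iron mobile (-0.35 ± 0.19), the boron exporter BOR1 (-0.10 ± 0.06) and the nitrate retriever NRT1.8 (0.28 ± 0.35) did not pass. The list thus held both loaders and retrievers among the members that fell.

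Of 10 genes for potassium and sodium 7 fell and 0 rose (median -0.53; 1 rose without opt3-2 replicate 2, opt3-2 replicate 3 or Col-0 replicate 1). KC1, a silent subunit that tunes the uptake channel, had 68.5, 72.1 and 64.7 CPM in opt3-2 roots, against 126, 130.1 and 121 CPM in Col-0 roots (log2 -0.87 ± 0.07 SE, adjusted p = 4.64e-06). AKT1, the uptake channel, had 152, 144 and 141 CPM in opt3-2 roots, against 201, 218 and 223 CPM in Col-0 roots (log2 -0.55 ± 0.12 SE, adjusted p = 0.00352). CIPK23, the kinase that activates it, had 105, 97.2 and 99.8 CPM in opt3-2 roots, against 147, 141 and 139.8 CPM in Col-0 roots (log2 -0.50 ± 0.05 SE, adjusted p = 1.49e-05). CBL9, a calcium sensor that recruits this kinase, had 22.6, 21.1 and 23.2 CPM in opt3-2 and 35.4, 36.02 and 39.6 CPM in Col-0 (log2 -0.73 ± 0.08 SE, adjusted p = 4.64e-05). Channel, subunit, sensor and kinase were therefore each lower in all 3 opt3-2 libraries. The sodium exporter SOS1 (-0.39 ± 0.06) and the outward channel GORK (-0.63 ± 0.16) fell as well.

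Nitrogen genes had 0 higher and 9 lower of 20 (median -0.27; 1 higher without Col-0 replicate 3). AMT1;2, an ammonium importer, had 37.7, 36.5 and 33.2 CPM in opt3-2 roots, against 94.2, 115 and 76.9 CPM in Col-0 roots (log2 -1.41 ± 0.21 SE, adjusted p = 0.000513). CLCA, which stores nitrate in the vacuole, had 107, 107 and 103 CPM in opt3-2 roots, against 228, 201 and 204 CPM in Col-0 roots (log2 -0.996 ± 0.07 SE, adjusted p = 1.78e-06). NRT2.1, the high-affinity nitrate importer, had 858, 815 and 909 CPM in opt3-2 roots, against 1237, 1331 and 1251 CPM in Col-0 roots (log2 -0.56 ± 0.08 SE, adjusted p = 0.000285). NIR1 (-0.08 ± 0.06), the nitrite reductase, and GLN1;1 (0.05 ± 0.10), a glutamine synthetase, did not pass. Calls of phosphate genes split evenly, 6 higher and 6 lower of 20. Their summed level was lower in every opt3-2 library, with 1306, 1170 and 1168 CPM against 1712, 1903 and 1877 CPM in Col-0 roots. The starvation-induced phosphatase PAP17 (1.05 ± 0.11) and the importer PHT1;4 (0.92 ± 0.16) rose, while the importer PHT1;1 (-0.64 ± 0.08) and the ubiquitin-conjugating enzyme PHO2 (-0.75 ± 0.12), which restrains phosphate uptake, fell. PHT1;1 and PHT1;2 are near-identical copies.

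Of 22 aquaporins, the water channels, 11 fell and 2 rose (median -0.38). Summed, they stood at 4823, 5149.6 and 5129 CPM in opt3-2 roots, against 7079, 7462 and 6528 CPM in Col-0 roots. PIP1;1, of the plasma membrane, had 465, 495 and 490.5 CPM in opt3-2 roots, against 826, 897 and 794 CPM in Col-0 roots (log2 -0.80 ± 0.08 SE, adjusted p = 1.58e-05). PIP2;1 had 903, 935 and 934 CPM in opt3-2 roots, against 1371, 1513 and 1323 CPM in Col-0 roots (log2 -0.60 ± 0.08 SE, adjusted p = 0.000104). TIP1;2, of the vacuole, had 252, 292 and 265 CPM in opt3-2 and 561, 511 and 433 CPM in Col-0 (log2 -0.90 ± 0.11 SE, adjusted p = 8.28e-05). Every opt3-2 library of these was below every Col-0 library. PIP2;5 and PIP1;4 went the other way: PIP2;5 had 57.9, 53.2 and 64.3 CPM in opt3-2 roots, against 21.2, 22.9 and 25.7 CPM in Col-0 roots (log2 1.33 ± 0.13 SE, adjusted p = 1.33e-05), and PIP1;4 stood at 0.76 ± 0.08.

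Dehydration proteins protect membranes and proteins as water is lost, and 13 of 18 rose while 0 fell (median 0.91). The count depended on single libraries: 7 rose without opt3-2 replicate 1 and 8 without Col-0 replicate 2. COR47, a dehydrin, had 475, 436 and 499.9 CPM in opt3-2 roots, against 241, 229.7 and 291 CPM in Col-0 roots (log2 0.89 ± 0.10 SE, adjusted p = 4.41e-05). LEA14 had 76.5, 59.8 and 69.9 CPM in opt3-2 roots, against 33.9, 33.7 and 52.8 CPM in Col-0 roots (log2 0.78 ± 0.19 SE, adjusted p = 0.00909). KIN1 had 3.16, 1.17 and 1.87 CPM in opt3-2 and 0.145, 0.0940 and 0.151 CPM in Col-0 (log2 3.94 ± 0.42 SE, adjusted p = 3.19e-05). The Col-0 values of KIN1 lie just above the floor of 3 counts, so the size of its fold is uncertain. RAB18, an abscisic acid marker, had 0.831, 1.07 and 1.09 CPM in opt3-2 and 0.386, 0.141 and 0.0753 CPM in Col-0 (log2 2.29 ± 0.49 SE, adjusted p = 0.00397; 3.15 without Col-0 replicate 1), and its Col-0 values reach the floor of 3 counts. These genes were higher in all opt3-2 libraries, at levels that for KIN1 and RAB18 are low.

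The 2 members with the largest rise among those that hold the abscisic acid element ACGTGNC and kept their call without any single library are shown next. Capitals mark the element, which in LEA14 lies on the other strand and reads GNCACGT.
RAB18 (chr5:26519448-26519697, minus strand): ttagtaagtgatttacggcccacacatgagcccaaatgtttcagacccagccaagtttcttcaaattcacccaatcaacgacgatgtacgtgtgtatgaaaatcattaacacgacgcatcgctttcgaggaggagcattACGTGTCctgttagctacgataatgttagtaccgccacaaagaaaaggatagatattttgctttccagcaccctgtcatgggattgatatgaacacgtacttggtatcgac
LEA14 (chr1:172949-173198, minus strand): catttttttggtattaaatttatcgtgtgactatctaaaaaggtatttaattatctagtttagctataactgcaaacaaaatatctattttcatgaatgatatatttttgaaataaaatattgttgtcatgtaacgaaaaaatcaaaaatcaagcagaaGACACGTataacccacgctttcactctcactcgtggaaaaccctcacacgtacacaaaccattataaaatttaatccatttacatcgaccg
It occurred in 9 of 19 promoters of the list (47.4%), against 9.31% of the 21478, and its core can overlap the G-box CACGTG. It lies 111 bases before the start in RAB18 and 91 in LEA14. The same element occurred in 6 of the 16 promoters of endoplasmic reticulum chaperones (37.5%).

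Abscisic acid signalling had 8 higher and 3 lower of 18. The hormone's synthesis gene NCED3 had 9.57, 5.24 and 7.94 CPM in opt3-2 roots, against 1.28, 1.97 and 2.84 CPM in Col-0 roots (log2 1.90 ± 0.27 SE, adjusted p = 0.000328), and its catabolic gene CYP707A1 had 20.3, 12.3 and 11.4 CPM in opt3-2 and 4.85, 4.96 and 7.64 CPM in Col-0 (log2 1.33 ± 0.25 SE, adjusted p = 0.00161). HAI2, a phosphatase that the hormone induces, had 1.66, 2.07 and 3.88 CPM in opt3-2 and 0.362, 0.211 and 0.553 CPM in Col-0 (log2 2.76 ± 0.36 SE, adjusted p = 0.000133). Receptors that passed fell. PYL6 had 20.96, 20.2 and 18.9 CPM in opt3-2 roots, against 65.7, 80.3 and 72.8 CPM in Col-0 roots (log2 -1.86 ± 0.09 SE, adjusted p = 1.07e-07), and PYL5 (-0.90 ± 0.13) and PYL4 (-0.59 ± 0.10) fell as well, while ABI1 (0.35 ± 0.07) and ABI2 (0.55 ± 0.09), the phosphatases that the receptors inhibit, rose. The factors ABF3 (-0.09 ± 0.09) and ABF4 (-0.14 ± 0.10) did not pass.

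Of 13 salicylic acid genes 7 rose and 0 fell (median 0.63). PR2, a secreted glucanase, had 168, 234 and 237 CPM in opt3-2 roots, against 27.98, 33.1 and 34.8 CPM in Col-0 roots (log2 2.74 ± 0.22 SE, adjusted p = 4.64e-06). PR5, a thaumatin-like protein, had 227, 285 and 332 CPM in opt3-2 roots, against 50.5, 58.2 and 62.4 CPM in Col-0 roots (log2 2.30 ± 0.19 SE, adjusted p = 5.88e-06). EDS5, which exports the hormone's precursor from plastids, had 97.7, 87.2 and 87.3 CPM in opt3-2 roots, against 27.98, 33.04 and 40.8 CPM in Col-0 roots (log2 1.42 ± 0.19 SE, adjusted p = 0.000232). Genotypes did not overlap for these genes, nor for PBS3 (1.12 ± 0.18), which conjugates that precursor. Of 16 genes for camalexin and indole compounds 8 rose and 1 fell, with 5 higher without Col-0 replicate 1 and 2 lower without Col-0 replicate 1 or opt3-2 replicate 1. PAD3, which completes camalexin, had 176, 168 and 169.6 CPM in opt3-2 roots, against 48.6, 42.2 and 49.1 CPM in Col-0 roots (log2 1.88 ± 0.20 SE, adjusted p = 5.35e-05). CYP71A12, which supplies indole intermediates, had 377, 320.4 and 309 CPM in opt3-2 roots, against 116, 97.3 and 138 CPM in Col-0 roots (log2 1.52 ± 0.17 SE, adjusted p = 5.00e-05); it is a close copy of CYP71A13. CYP79B2, the entry enzyme, rose (0.90 ± 0.12) and its paralogue CYP79B3 fell (-0.44 ± 0.07).

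Aliphatic glucosinolates had 4 higher and 2 lower of 14, and 2 higher without opt3-2 replicate 1 or without Col-0 replicate 1. MYB28, their main activator, had 21.8, 21.3 and 20.01 CPM in opt3-2 roots, against 52.5, 62.5 and 49.1 CPM in Col-0 roots (log2 -1.38 ± 0.10 SE, adjusted p = 1.84e-06), and MAM1, which extends methionine side chains, had 13.3, 13.9 and 15.3 CPM in opt3-2 and 22.9, 26.1 and 21.2 CPM in Col-0 (log2 -0.72 ± 0.11 SE, adjusted p = 0.000416). CYP79F2, an entry enzyme for long chains, rose (0.95 ± 0.13).

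Of 23 WRKY factors, regulators of defence, 12 rose and 0 fell (median 0.69). Summed, they stood at 2231, 1473 and 1634 CPM in opt3-2 roots, against 1022, 1128 and 1975 CPM in Col-0 roots, ranges that overlap. WRKY8 had 8.31, 7.21 and 7.06 CPM in opt3-2 roots, against 2.44, 2.35 and 2.76 CPM in Col-0 roots (log2 1.58 ± 0.16 SE, adjusted p = 1.61e-05). WRKY70, which acts below salicylic acid, had 75.8, 64.1 and 72.6 CPM in opt3-2 roots, against 22.3, 23.1 and 38.7 CPM in Col-0 roots (log2 1.34 ± 0.19 SE, adjusted p = 0.000303). WRKY63 had 12.4, 12.9 and 15.3 CPM in opt3-2 and 4.94, 5.10 and 5.48 CPM in Col-0 (log2 1.39 ± 0.18 SE, adjusted p = 0.000122). WRKY18 was not called, with 119, 67.1 and 71.1 CPM in opt3-2 and 25.2, 27.7 and 69.9 CPM in Col-0: Col-0 replicate 3 lay inside the range of opt3-2. The W-box TTGACN, which these factors bind, occurred in 17 of their 23 promoters (73.9%), against 45.5% of the 21478.

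Jasmonate genes gave the least even picture. Of 25 tested 6 rose and 1 fell at a median of 1.000, but 12 rose without Col-0 replicate 3 and 11 without both Col-0 replicate 3 and opt3-2 replicate 1. The list summed to 2167, 1078 and 1147 CPM in opt3-2 roots, against 615, 783 and 1452 CPM in Col-0 roots, with opt3-2 replicate 1 and Col-0 replicate 3 the highest of their groups. JAZ5, a repressor induced by the hormone, had 54.4, 17.2 and 19.8 CPM in opt3-2 and 4.12, 6.18 and 30.7 CPM in Col-0 and did not pass (1.15 ± 0.75). Without both Col-0 replicate 3 and opt3-2 replicate 1, JAZ5 stood at 1.84 (adjusted p = 0.0258). JAZ10 had 52.5, 19.9 and 15.6 CPM in opt3-2 and 1.95, 2.21 and 5.55 CPM in Col-0 (log2 3.18 ± 0.64 SE, adjusted p = 0.00333); it stood at 3.81 without Col-0 replicate 3 and at 2.46 without opt3-2 replicate 1. The storage protein genes VSP1 and VSP2 were steadier within opt3-2. VSP2 had 44.8, 47.2 and 39.9 CPM in opt3-2 roots, against 6.05, 9.40 and 15.8 CPM in Col-0 roots (log2 2.08 ± 0.34 SE, adjusted p = 0.000916), and VSP1 had 24.8, 28.7 and 20.96 CPM in opt3-2 and 4.34, 5.40 and 7.51 CPM in Col-0 (log2 2.11 ± 0.49 SE, adjusted p = 0.00707). JAR1, which activates the hormone by joining it to isoleucine, fell (-0.48 ± 0.10).

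**Figure D4:**
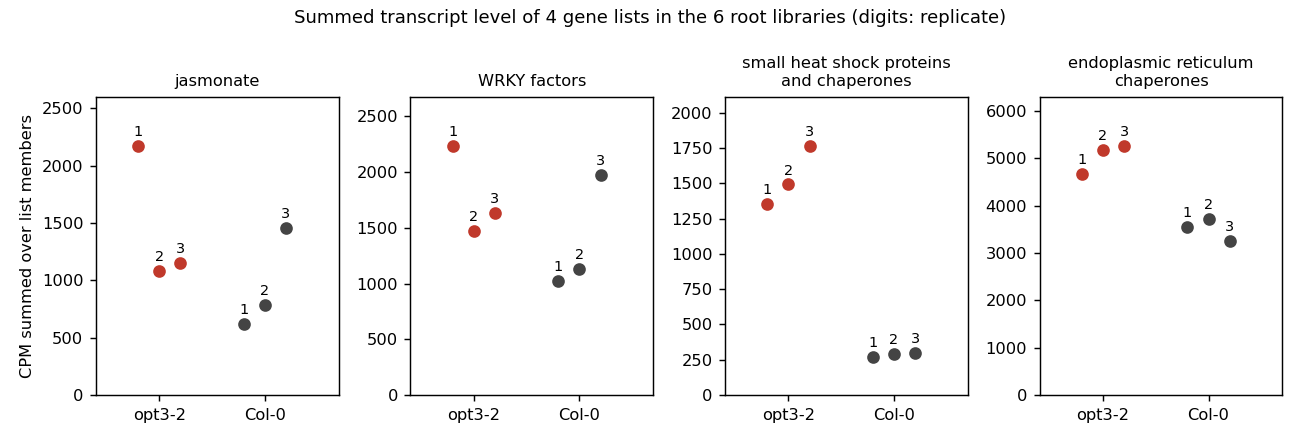
Summed CPM of the members of each list in each root library, opt3-2 (red) left of Col-0 (grey), on axes that start at 0. Heat shock proteins separate the genotypes (1355 to 1761 CPM in opt3-2 against 266 to 299 CPM in Col-0), while jasmonate genes overlap (1078 to 2167 CPM in opt3-2 against 615 to 1452 CPM in Col-0). WRKY factors overlap as well (1473 to 2231 CPM in opt3-2 against 1022 to 1975 CPM in Col-0).

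Ethylene genes had 5 higher and 3 lower of 15, with 3 higher without opt3-2 replicate 1, Col-0 replicate 1 or Col-0 replicate 2. ACS2, a synthase of the ethylene precursor, had 39.2, 40.05 and 40.9 CPM in opt3-2 roots, against 9.70, 8.86 and 10.1 CPM in Col-0 roots (log2 2.07 ± 0.28 SE, adjusted p = 0.000245). EBF2, which removes the ethylene factor EIN3, had 188, 192 and 216 CPM in opt3-2 and 303, 329 and 329 CPM in Col-0 (log2 -0.69 ± 0.09 SE, adjusted p = 0.000115). The receptor ERS2 rose (0.55 ± 0.08) and the receptor ETR2 fell (-0.42 ± 0.09).

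Auxin genes had 7 higher and 4 lower of 24. GH3.3, which conjugates auxin to amino acids, had 25.7, 19.01 and 21.9 CPM in opt3-2 roots, against 3.11, 4.84 and 5.60 CPM in Col-0 roots (log2 2.30 ± 0.29 SE, adjusted p = 0.000157). The exporters PIN3 (0.48 ± 0.08) and PIN7 (0.67 ± 0.17) rose, while the importer LAX3 (-0.50 ± 0.12) and the response factor ARF19 (-0.41 ± 0.09) fell. IAA3, a repressor of auxin responses, had 7.63, 6.73 and 7.09 CPM in opt3-2 and 13.5, 16.9 and 17.3 CPM in Col-0 (log2 -1.15 ± 0.14 SE, adjusted p = 8.34e-05), and IAA19, another repressor, went the other way (0.75 ± 0.15).

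Cytokinin genes had 8 of 19 lower and 4 higher (median -0.29). ARR6, a response regulator that the hormone induces, had 9.65, 8.07 and 7.83 CPM in opt3-2 roots, against 18.5, 21.3 and 16.9 CPM in Col-0 roots (log2 -1.15 ± 0.19 SE, adjusted p = 0.00071). ARR7 had 13.7, 12.4 and 11.01 CPM in opt3-2 roots, against 22.7, 26.4 and 28.4 CPM in Col-0 roots (log2 -1.06 ± 0.14 SE, adjusted p = 0.000157). ARR8 had 32.4, 36.2 and 31.6 CPM in opt3-2 roots, against 72.9, 63.9 and 54.9 CPM in Col-0 roots (log2 -0.94 ± 0.10 SE, adjusted p = 4.19e-05). These regulators, like IPT5 (-0.74 ± 0.11), a synthesis gene, and ARR4 (-0.44 ± 0.10), were below Col-0 in every opt3-2 library. Genes that degrade the hormone were split: CKX4 fell, with 21.4, 19.3 and 17.2 CPM in opt3-2 and 52.7, 44.03 and 46.2 CPM in Col-0 (log2 -1.30 ± 0.18 SE, adjusted p = 0.000243), and CKX2 (1.72 ± 0.33) and CKX5 (0.80 ± 0.18) rose.

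Of 19 cell division genes 17 rose and 0 fell (median 0.60), and none reached 2-fold. Summed, they stood at 399.6, 477 and 466 CPM in opt3-2 roots, against 308, 282 and 295 CPM in Col-0 roots. MCM3, a subunit of the replicative helicase, had 27.3, 31.2 and 31.3 CPM in opt3-2 roots, against 18.8, 18.02 and 18.5 CPM in Col-0 roots (log2 0.70 ± 0.08 SE, adjusted p = 3.19e-05). CDKB1;1, a kinase of the G2 phase, had 12.2, 14.7 and 14.4 CPM in opt3-2 roots, against 8.71, 6.67 and 7.79 CPM in Col-0 roots (log2 0.84 ± 0.14 SE, adjusted p = 0.00059). CYCA1;1, a cyclin, had 9.69, 13.5 and 11.4 CPM in opt3-2 roots, against 7.09, 6.20 and 6.28 CPM in Col-0 roots (log2 0.82 ± 0.14 SE, adjusted p = 0.000929). Genotypes did not overlap for these genes. PCNA2 (0.29 ± 0.12) and AUR2 (0.37 ± 0.17) did not pass. The 6 root tip markers summed to 19.2, 23.3 and 23.7 CPM in opt3-2 roots, against 21.1, 20.3 and 17.6 CPM in Col-0 roots, and none was called; their part in the result was not tested.

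Phenylpropanoid and lignin genes turn phenylalanine into monolignols and coumarin precursors, and 10 of 17 rose while 2 fell (median 0.56; 1 fell without opt3-2 replicate 1, opt3-2 replicate 3 or Col-0 replicate 1). PAL2, the entry enzyme, had 822, 756 and 823 CPM in opt3-2 roots, against 297, 295 and 397 CPM in Col-0 roots (log2 1.28 ± 0.10 SE, adjusted p = 4.02e-06). 4CL1, which activates cinnamic acids, had 730.4, 788 and 843 CPM in opt3-2 roots, against 325, 327 and 341 CPM in Col-0 roots (log2 1.25 ± 0.08 SE, adjusted p = 8.14e-07). CCOAOMT1, a methyltransferase, had 1193, 1267 and 1325 CPM in opt3-2 roots, against 667, 596 and 637 CPM in Col-0 roots (log2 0.99 ± 0.08 SE, adjusted p = 4.11e-06). Together the list summed to 8388, 8599 and 8799 CPM in opt3-2 roots and 5249.6, 5100.3 and 5427 CPM in Col-0 roots. CCR1, the entry to lignin, stood at 0.11 ± 0.07 and did not pass, and CAD4, a late step, fell (-0.43 ± 0.09). Flavonoids had 2 higher and 0 lower of 9. CHI, the chalcone isomerase, had 2.57, 1.66 and 1.55 CPM in opt3-2 and 0.531, 0.305 and 0.326 CPM in Col-0 (log2 2.29 ± 0.29 SE, adjusted p = 9.81e-05), and FLS1, a flavonol synthase, stood at 1.61 ± 0.39, or at 1.05 (adjusted p = 0.0577) when opt3-2 replicate 1 and Col-0 replicate 3 were both left out.

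Suberin and the Casparian strip form the barriers of the endodermis. Of 19 suberin genes 6 fell and 2 rose (1 rose without opt3-2 replicate 1 or 2 or Col-0 replicate 2 or 3). CYP86A1, which makes the hydroxy acids of suberin, had 70.6, 68.9 and 59.2 CPM in opt3-2 roots, against 179.7, 122 and 117 CPM in Col-0 roots (log2 -1.07 ± 0.22 SE, adjusted p = 0.00291). MYB92, an activator of suberin genes, had 23.9, 23.5 and 19.6 CPM in opt3-2 and 42.9, 42.9 and 35.3 CPM in Col-0 (log2 -0.86 ± 0.12 SE, adjusted p = 0.000238). MYB41, another activator, rose, with 8.94, 9.28 and 9.07 CPM in opt3-2 roots, against 3.91, 3.50 and 2.76 CPM in Col-0 roots (log2 1.42 ± 0.18 SE, adjusted p = 8.26e-05). The Casparian strip list had 0 higher and 3 lower of 11, a share of lower members near that of all genes, with a median of -0.01; SGN1, a kinase that monitors the strip, stood at -0.61 ± 0.10. Summed, that list held 230.1, 261 and 232 CPM in opt3-2 roots and 306, 274 and 248 CPM in Col-0 roots, ranges that overlap.

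Low-oxygen genes had 5 higher and 3 lower of 12. HRE2, a factor of the hypoxia response, had 6.65, 4.90 and 4.66 CPM in opt3-2 roots, against 0.796, 1.03 and 1.26 CPM in Col-0 roots (log2 2.39 ± 0.25 SE, adjusted p = 2.81e-05), and its relative HRE1 had 30.3, 18.1 and 16.7 CPM in opt3-2 roots, against 51.9, 55.5 and 59.1 CPM in Col-0 roots (log2 -1.36 ± 0.18 SE, adjusted p = 0.000198). ADH1, alcohol dehydrogenase, had 27.1, 18.4 and 20.7 CPM in opt3-2 and 87.1, 137 and 35.1 CPM in Col-0 (log2 -1.97 ± 0.39 SE, adjusted p = 0.00329), with a wide spread in Col-0. LBD41 (1.497 ± 0.34) and HRA1 (2.47 ± 0.59) were higher, but HRA1 stood at 1.23 without opt3-2 replicate 1. Sugar starvation genes had 3 higher and 3 lower of 9. ASN1, an asparagine synthetase, had 333, 302 and 342 CPM in opt3-2 and 98.8, 85.9 and 167 CPM in Col-0 (log2 1.48 ± 0.24 SE, adjusted p = 0.000777), and TPS10, of the trehalose phosphate synthase family, fell (-0.61 ± 0.07). Sugar transport had 2 higher and 1 lower of 9 (2 lower without opt3-2 replicate 1 or Col-0 replicate 3). STP13, a hexose importer, had 131, 124 and 140.4 CPM in opt3-2 roots, against 50.6, 39.5 and 58.6 CPM in Col-0 roots (log2 1.41 ± 0.13 SE, adjusted p = 9.82e-06), and SWEET17, the vacuolar fructose carrier, fell (-0.54 ± 0.05).

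Several of the largest changes lay outside the lists. AT5G38820, an amino acid transporter family gene, had 29.2, 41.8 and 40.3 CPM in opt3-2 roots, against 0.989, 0.658 and 0.502 CPM in Col-0 roots (log2 5.68 ± 0.22 SE, adjusted p = 1.98e-08). AT1G52120, a mannose-binding lectin, had 34.2, 51.6 and 38.7 CPM in opt3-2 roots, against 1.64, 1.46 and 1.41 CPM in Col-0 roots (log2 4.79 ± 0.20 SE, adjusted p = 3.51e-08). AT1G71000, a DnaJ-domain chaperone, had 9.61, 8.55 and 13.4 CPM in opt3-2 and 0.241, 0.211 and 0.226 CPM in Col-0 (log2 5.52 ± 0.33 SE, adjusted p = 4.03e-07). AT3G01345 rested on opt3-2 replicate 1, with 19.7, 3.10 and 1.06 CPM in opt3-2 and 0.0724, 0.0940 and 0.176 CPM in Col-0; its Col-0 values lie around the floor of 3 counts and no fold is given. Among the falls, UMAMIT17 and UMAMIT20, amino acid carrier family genes, were both lower. UMAMIT17 had 8.15, 8.80 and 8.01 CPM in opt3-2 roots, against 62.8, 80.4 and 72.7 CPM in Col-0 roots (log2 -3.11 ± 0.13 SE, adjusted p = 2.93e-08). UMAMIT20 had 3.80, 2.55 and 3.56 CPM in opt3-2 roots, against 19.7, 23.5 and 23.2 CPM in Col-0 roots (log2 -2.75 ± 0.12 SE, adjusted p = 3.35e-08). The pair lies side by side on chromosome 4, and similar family members could share reads. AIR1, a gene first found as auxin-induced in root cultures, had 33.8, 20.4 and 18.03 CPM in opt3-2 and 224, 173 and 121 CPM in Col-0 (log2 -2.84 ± 0.26 SE, adjusted p = 2.07e-05). CYP78A6, a cytochrome P450 gene, had 1.82, 2.10 and 1.76 CPM in opt3-2 and 11.4, 12.1 and 13.4 CPM in Col-0 (log2 -2.69 ± 0.12 SE, adjusted p = 5.34e-08). Among the most abundant transcripts, TCTP, a conserved growth protein, had 1250.2, 1162 and 1256 CPM in opt3-2 roots, against 1808, 2035 and 2166 CPM in Col-0 roots (log2 -0.71 ± 0.11 SE, adjusted p = 0.000483). ATMS1 (0.56 ± 0.09) and HOG1 (0.54 ± 0.08), the methionine synthase and the homocysteine-releasing hydrolase of the methyl cycle, both rose, and UBQ10 stood at 0.10 ± 0.09 and did not pass.

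The effect of opt3-2 in roots was then set against that in shoots, in the same fit. The difference between the 2 effects passed for 10542 genes (48.2%), 24.2% with the larger value in roots and 24.0% with the larger value in shoots. In all 1442 genes (6.59%) were higher in opt3-2 roots and lower in opt3-2 shoots, and 1764 (8.06%) were lower in roots and higher in shoots. In shoots 21.3% of genes were higher and 22.6% lower. Endoplasmic reticulum chaperones had 0 higher and 13 lower of 16 in opt3-2 shoots (median -1.41), and the difference between tissues passed upward for 14. Cell division genes had 0 higher and 16 lower of 19 in shoots, and the difference passed upward for 19. Small heat shock proteins and chaperones were less uniform in shoots, with 1 higher and 7 lower of 19 (median -0.57). HSP26.5 was higher in both tissues, at log2 1.17 in shoots (adjusted p = 0.00432). The difference passed upward for 17 members of that list. Salicylic acid genes had 0 higher and 7 lower of 13 in shoots. The difference passed upward for 7 of these and for 18 jasmonate genes, and downward for 7 aliphatic glucosinolate genes. Aliphatic glucosinolate genes had 13 higher and 0 lower of 14 in shoots, and jasmonate genes 1 higher and 12 lower of 25.

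Members called in opposite directions in the tissues, chosen after their values were seen, show the size of the contrast. BIP3 stood at log2 1.17 ± 0.12 in roots and -3.71 in shoots, a difference of 4.87 (adjusted p = 8.45e-08). PR2 stood at 2.74 ± 0.22 in roots and -3.83 in shoots, and PR5 at 2.30 ± 0.19 in roots and -4.84 in shoots. PAD3 stood at 1.88 ± 0.20 in roots and -2.24 in shoots. For HSP17.6II the root value was 5.64 ± 0.17 and the shoot value -2.86, a difference of 8.50. These defence and chaperone genes were thus above Col-0 in roots and below it in shoots. MCM5 (0.60 ± 0.11 in roots, -1.71 in shoots), GSTF2 (1.09 ± 0.15 in roots, -1.55 in shoots) and ACS2 (2.07 ± 0.28 in roots, -1.98 in shoots) followed the same direction. The remaining members lay the other way. KC1 stood at -0.87 ± 0.07 in roots and 0.85 in shoots, and IPT5 at -0.74 ± 0.11 in roots and 1.06 in shoots. MYB28 stood at -1.38 ± 0.10 in roots and 0.49 in shoots, and BHLH11 at -1.42 ± 0.21 in roots and 1.46 in shoots. Passing the test of the difference was a condition for showing these 12 genes. ACS2 had the highest adjusted p among them (0.000364).

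**Figure D5:**
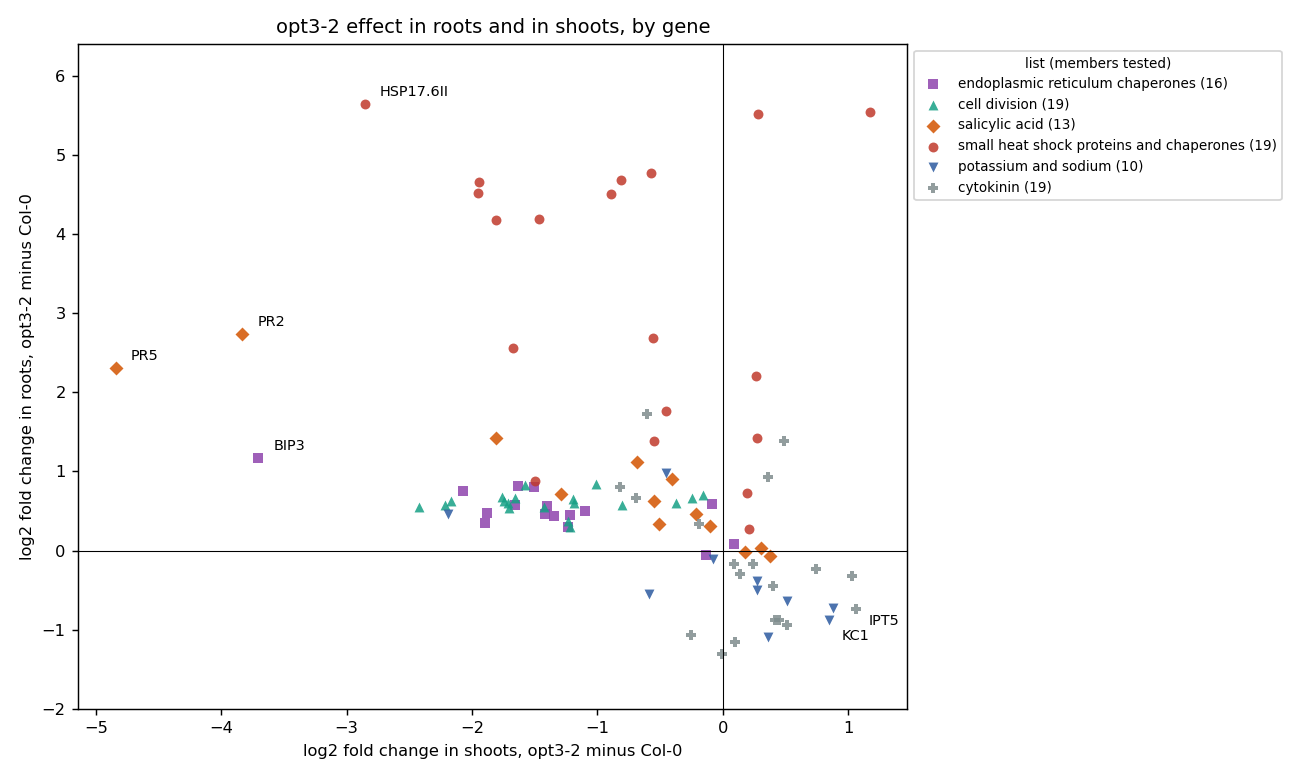
Each point is a member of 1 of 6 lists, placed by its log2 fold change of opt3-2 over Col-0 in roots (y axis) and in shoots (x axis). All 19 cell division genes and most endoplasmic reticulum chaperones lie above 0 in roots and below 0 in shoots, with BIP3 at 1.17 in roots and -3.71 in shoots, while KC1 lies at -0.87 in roots and 0.85 in shoots.

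Markers of other cell types were read beside these results. Leaf photosynthesis markers, a check for shoot tissue, summed to 174, 187 and 214 CPM in opt3-2 roots, against 139, 148 and 210.2 CPM in Col-0 roots; 1 of 10 rose, 2 without opt3-2 replicate 1, 7 without Col-0 replicate 3 and 8 without both. Root hair markers had 5 of 12 higher and 0 lower, with 2 to 9 higher when single libraries were left out (9 without Col-0 replicate 1, 2 without Col-0 replicate 2, 3 without opt3-2 replicate 2 or Col-0 replicate 3, which also gave 1 lower) and 1 higher without both opt3-2 replicate 1 and Col-0 replicate 3. EXPA18, a root hair expansin, had 14.4, 19.3 and 16.6 CPM in opt3-2 and 12.4, 8.67 and 6.88 CPM in Col-0 (log2 0.84 ± 0.19 SE, adjusted p = 0.00404). Phloem markers had 1 higher and 2 lower of 8 (3 higher without Col-0 replicate 3). SUC2, the sucrose loader of companion cells, had 82.1, 94.96 and 95.6 CPM in opt3-2 and 58.2, 54.3 and 75.5 CPM in Col-0 (log2 0.54 ± 0.12 SE, adjusted p = 0.00343), and SEOR1, a filament protein of sieve elements, fell (-0.56 ± 0.13). Xylem markers had 2 higher and 0 lower of 8, and XCP1, a protease of forming vessels, had 85.8, 97.3 and 96.1 CPM in opt3-2 and 71.9, 48.99 and 65.6 CPM in Col-0 (log2 0.58 ± 0.12 SE, adjusted p = 0.00335), above Col-0 in every library. The part of these markers in the other results was not tested.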

How the data were processed

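RNA from roots and shoots of opt3-2 and Col-0 plants under cadmium was made into poly(A) TruSeq libraries and sequenced, per the labels' protocols. The deposited table holds raw read counts per gene for 28775 loci, made by the authors with tools that the submitters' processing notes name without versions: TopHat2, edgeR and the TAIR10 build. How reads were counted, whether strand was used and how multiply mapped reads were treated is not given in the sources used here. From these counts, 3 technical columns were summed per biological replicate, giving 12 libraries in 4 groups. The technical columns of a library varied by 1.02 to 1.06 times the Poisson variance. The labels call the replicates biological; whether they came from separately grown batches is not stated, so p-values measure the spread between these samples.

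Genes with low counts were removed with edgeR's filterByExpr, leaving 21887. Library sizes were scaled with TMM factors, and edgeR 4.0.16 (R 4.3.3) fitted its quasi-likelihood test to all 12 libraries with 8 residual degrees of freedom, so that groups share 1 estimate of spread. Contrasts were opt3-2 minus Col-0 in roots, the same in shoots, and their difference, with Benjamini-Hochberg adjustment over all genes tested and a threshold of 0.05. CPM values are normalised counts from the same fit. A fold change carries a standard error (SE) derived from the test. It is the absolute log2 fold change divided by the square root of the test's F statistic. Floors cover counting error only, while standard errors include the spread between libraries.

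In simulated counts with the same library sizes the fit recovered 60% of genes changed 1.5-fold and 100% of those changed 2-fold, with 9 false calls among 21794 genes. Each fold was given to 50 genes, none with low counts. All genes had the same spread and no second component was simulated, so these shares hold for that setting only. Same-numbered root libraries of the genotypes did not deviate together (correlations -0.302, 0.0192 and 0.0100), so the numbers were not treated as pairs. Alternatives were RLE factors, library totals, other filters, the 6 root libraries alone, technical replicate 1 alone, matched run suffixes, a replicate block, each library left out, a 1.5-fold threshold (glmTreat), DESeq2 1.42.0 and limma-voom (limma 3.58.1). Leaving out both libraries of the second component was added after seeing the data.

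The 47 gene lists and the genes compared were chosen with earlier results of these data known. Named genes come from a rule that takes OPT3 and its neighbours, list members (smallest p first, with members that did not pass where they complete a role), the 10 most abundant transcripts of each root group, and the 15 called genes with the steepest rise and the 15 with the steepest fall that average at least 5 CPM in a root group without overlap between groups. Not every gene that the rule takes is named. Among list members, those given in full were picked with their values known, and members of smaller p were passed over in places. Gene positions and promoters come from RefSeq's TAIR10.1 annotation, in which 28009 of 28775 loci were found.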

Additional observations from a re-analysis of the deposited data

Results flagged for a closer look

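The genes below have opposite calls in roots and shoots, and the test of the difference between tissues passed for each, which is why they are listed. Values are the log2 effect of opt3-2 in roots minus that in shoots. Among genes higher in opt3-2 roots, the endoplasmic reticulum chaperone BIP3 had a difference of 4.87. The secreted defence proteins PR2 and PR5 had differences of 6.57 and 7.14, and the camalexin enzyme PAD3 one of 4.12. HSP17.6II, a small heat shock protein, had a difference of 8.50; it has a close copy in HSP17.6A, so its own share of the reads is uncertain. The helicase subunit MCM5 had 2.32, the glutathione transferase GSTF2 had 2.64 and the ethylene precursor synthase ACS2 had 4.05. Among genes lower in opt3-2 roots, the potassium channel subunit KC1 had a difference of -1.72 and the cytokinin synthesis gene IPT5 one of -1.81. The glucosinolate factor MYB28 had -1.86, and BHLH11, a repressor of the iron-deficiency response, had -2.88.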

How the results depend on the processing

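No call of a named gene turned to the opposite direction in any of the 18 settings, and 118 of 238 named genes kept their side of the threshold in all of them. The main counts were 3828 higher and 4702 lower, 1151 higher by 2-fold or more and 394 calls within gene lists. With run suffixes 2 and 3 only, which leaves Col-0 with replicate 3 alone, assumed to vary like the other groups, they were 1684 higher, 2119 lower, 708 higher by 2-fold and 243 within lists. Tested against a 1.5-fold change with glmTreat, 872 were higher, 551 lower and 139 within lists; cell division and proteasome genes then had 0 calls and endoplasmic reticulum chaperones 2. Without single libraries 2823 to 3537 genes were higher and 3745 to 4164 lower, 977 to 1281 were higher and 525 to 614 lower by 2-fold, 351 to 421 calls fell within lists, and 9603 to 10219 differed between tissues. OPT3 stood at -3.29 to -2.66 in these fits. Leaving out both opt3-2 replicate 1 and Col-0 replicate 3 gave 3333 higher and 3660 lower. DESeq2 gave 4416 higher and 4225 lower, limma-voom 4116 and 4716, and RLE factors 4246 and 4178. In a window that also takes 50 bases after the start, 8 heat shock protein promoters held the heat shock element and 4 chaperone promoters the endoplasmic reticulum stress element, since more bases were searched. With the replicate number as a block, 3233 genes were higher and 3314 lower; the numbers are not known to pair the libraries. Depth limits genes near the floor of 3 counts, which is higher in CPM for opt3-2 roots than for Col-0 roots.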
